A study of Mus musculus with 10 samples.

Results

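The 44 genes described here are cell cycle genes: 6 cyclins and kinases of G1 and its exit (Ccnd1, Ccnd2, Cdk4, Cdk2, Ccne1, Ccne2), 3 transcription regulators (E2f1, Mybl2, Foxm1), 14 genes of DNA replication and nucleotide supply expressed in S phase, and 21 genes of G2 and mitosis. The list is one of gene names with no threshold on a measured value, but it was drawn up with earlier results of these data known. Members were found by gene symbol in the table of read counts. All 44 were present among its 52632 genes, and all 44 passed the filter on low counts among the 17110 genes tested. The RNA came from mouse neural stem cell cultures, each grown from the cortices of 1 embryo at E14.5 as an adherent layer in EGF and bFGF (20 ng/mL each). The embryos were Smchd1 GFP-E147A/+ or Smchd1 +/+. SMCHD1 is a chromatin ATPase that helps to silence the inactive X chromosome and some autosomal clusters, E147A replaces a residue of its ATPase domain, and the GFP tag sat on the mutant allele alone, so the effects of tag and mutation cannot be told apart. Fathers are described as Castaneus (Cast) and mothers as a cross of 129 and C57. The groups were female E147A/+ (n = 2, litters 1 and 2), female +/+ (n = 2, both litter 3), male E147A/+ (n = 3, litters 1, 1 and 3) and male +/+ (n = 3, litters 4, 1 and 3). Females of both genotypes also carried a maternal XistdeltaA allele. In females genotype and litter cannot be told apart. Replicates were cultures of separate embryos, listed below in the order of their replicate numbers.

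Growing cells pass from G1 through DNA replication in S phase to G2 and mitosis. D-type cyclins with CDK4 respond to growth factors such as EGF and bFGF, release E2F factors from RB proteins, and so start the transcription of cyclin E and of the replication genes. Mitotic genes are transcribed later, driven by B-MYB (Mybl2) and FOXM1 on promoters that often carry CCAAT boxes and a CHR element. Proliferating neural stem cells of the embryonic cortex express all of these genes, and cells that leave the cycle lose most of them.

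Promoters of the members, taken from RefSeq (GRCm38.p6), were searched on both strands for 4 E2F sequences (TTTCCCGC, TTTCGCGC, TTTGCCGC, TTTGGCGC), for the CHR element TTTGAA and for CCAAT. Of the 44 members, 35 were matched to a promoter. In the 300 bases around the start (250 before and 50 after), an E2F sequence lay in 6 of 12 S phase members and 1 of 18 mitosis members, against 2.32% of 27025 promoters. The CHR letters lay in 13 of 18 mitosis members (Aurka, Bub1b, Ccnb2, Cdc20, Cdk1, Cenpa, Cenpf, Kif11, Kif23, Mki67, Plk1, Top2a and Ube2c) and in 1 of 12 S phase members (Mcm2), against 18.1% of all promoters. CCAAT lay in 16 of 18 mitosis members and 8 of 12 S phase members, against 37.9%. In the 250 bases before the start alone, CHR letters were found in 7 of 18 mitosis members, since the other matches reached into or lay within the first 50 transcribed bases. Such matches are letters only and do not show that a factor binds. The 120 bases before the start of 4 members are printed to show each kind of match, with matches in capitals. They are not typical of their classes: in windows of this length an E2F sequence lay in 1 of 12 S phase members, Mcm6, and CHR letters in 6 of 18 mitosis members. They are Mcm6 (chr1:128359706-128359825), Mki67 (chr7:135716380-135716499), Cdk1 (chr10:69352913-69353032) and Ccnb2 (chr9:70421555-70421674), all 4 on the minus strand.
Mcm6: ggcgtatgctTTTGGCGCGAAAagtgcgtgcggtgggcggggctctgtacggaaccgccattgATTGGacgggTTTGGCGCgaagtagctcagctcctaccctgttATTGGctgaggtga
Mki67: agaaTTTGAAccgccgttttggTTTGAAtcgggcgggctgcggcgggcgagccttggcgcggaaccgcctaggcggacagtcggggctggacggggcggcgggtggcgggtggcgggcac
Cdk1: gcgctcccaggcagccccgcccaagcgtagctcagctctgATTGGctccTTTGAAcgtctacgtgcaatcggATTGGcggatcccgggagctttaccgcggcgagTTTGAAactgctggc
Ccnb2: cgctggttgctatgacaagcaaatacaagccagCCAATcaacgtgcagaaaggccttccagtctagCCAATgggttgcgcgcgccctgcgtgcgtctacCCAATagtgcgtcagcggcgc
The Mcm6 window held 3 E2F matches, 2 of which overlap on opposite strands in its first run of capitals, and 2 CCAAT boxes (ATTGG is the same box on the other strand). The Mki67 window held 2 CHR matches, the Cdk1 window 2 CHR and 2 CCAAT matches, and the Ccnb2 window 3 CCAAT matches and no CHR match. A CHR match of Ccnb2 lay after the start, outside the printed bases.

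Total counts were 20648916 to 44519020 per library, and the members made up 0.919% to 1.41% of them, with 221 to 117336 counts per member and library. Smchd1, the targeted gene, was at 118 ± 2.88 CPM (counts scaled to library size with TMM factors; SD, n = 2) in female E147A/+, 156 ± 22.5 (n = 2) in female +/+, 115 ± 17.9 (n = 3) in male E147A/+ and 155 ± 34.8 (n = 3) in male +/+. E147A/+ differed from +/+ in its level by -0.42 on the log2 scale (SE 0.15, adjusted p = 0.786 in edgeR's quasi-likelihood test), and gene counts do not show the mutation itself. Neural stem cell markers were high in every library (Nes 546 to 1125 CPM, Sox2 178 to 238 CPM), and markers of other neural cells were found too. The 6 astrocyte markers summed to 315 to 432 CPM per library, mostly Aldoc and Gja1, with Gfap at most 4.93 CPM. The 10 neuron markers summed to 612 to 1035 CPM, mostly Map2 (477 to 982 CPM), with Tubb3 at most 30.1 and Dcx at most 26.5 CPM. Mog, Aif1, Cx3cr1 and Csf1r were near 0. Male +/+ replicate 1 stood apart from the other libraries in its oligodendrocyte lineage markers, whose summed level was 453 CPM there and 85.5 to 237 CPM elsewhere.

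Among the G1 members the D cyclins were the most abundant of the 44 genes per transcript length, Ccnd1 at 591 CPM per kilobase of exon and Ccnd2 at 243, followed by their partner kinase Cdk4 at 154. Ccnd1, cyclin D1 (ENSMUSG00000070348, chr7:144929931-144939925, GRCm38), was measured at 2710.4 and 2482 CPM in female E147A/+, 2529.6 and 2988 in female +/+, 2908, 2455 and 3664 for the male E147A/+ cultures, and 2751, 2279.8 and 3045 for the male +/+ cultures. Its highest library was male E147A/+ replicate 3, and the genotypes overlapped in both sexes. Ccnd2, cyclin D2, was at 2289 and 2055 CPM in female E147A/+, 2141 and 2376 in female +/+, 2669.6, 2132 and 2969 for the male E147A/+ cultures, and 2025, 1749 and 2462 for the male +/+ cultures, again highest in male E147A/+ replicate 3 and overlapping between genotypes. The fold change over both sexes is given throughout as the mean of the female and the male E147A/+ minus +/+ difference on the log2 scale, with p-values from edgeR's quasi-likelihood test adjusted over all 17110 genes by Benjamini-Hochberg. It was 0.037 (SE 0.16, adjusted p = 0.967) for Ccnd1 and 0.13 (SE 0.15, adjusted p = 0.866) for Ccnd2.

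The kinase Cdk2 and its cyclin E partners varied more than the D cyclins. Cdk2 was at 123 and 126 CPM in female E147A/+, 88.8 and 97.4 in female +/+, 109.7, 126 and 54.8 for the male E147A/+ cultures, and 54.0, 118 and 91.3 for the male +/+ cultures, so that male E147A/+ replicate 3 and male +/+ replicate 1 lay below the other 8 libraries. Ccne2, cyclin E2, spanned 6.36-fold, from 16.5 CPM in male +/+ replicate 1 to 105 CPM in male +/+ replicate 3, both extremes thus lying in 1 group. Ccne1, cyclin E1, lay between 24.1 and 48.7 CPM. The fold changes over both sexes were 0.28 (SE 0.26, adjusted p = 0.838) for Cdk2, -0.40 (SE 0.43, adjusted p = 0.857) for Ccne2 and -0.26 (SE 0.21, adjusted p = 0.824) for Ccne1. None of these passed 0.05, and Cdk2 was at -0.35 with litter as a covariate.

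Foxm1 and Mybl2 were lowest in the same pair of libraries as Cdk2. E2f1, an activator of replication genes, was at 47.1 and 48.7 CPM in female E147A/+, 29.4 and 44.003 in female +/+, 44.6, 52.7 and 30.4 for the male E147A/+ cultures, and 22.0, 55.2 and 33.9 for the male +/+ cultures. It was lowest in male +/+ replicate 1, while male E147A/+ replicate 3 was close to female +/+ replicate 1 and male +/+ replicate 3. Foxm1, an activator of mitotic genes, was at 118 and 145 CPM in female E147A/+, 132 and 127 in female +/+, 109, 116 and 53.6 for the male E147A/+ cultures, and 53.7, 118 and 114 for the male +/+ cultures. Mybl2 was at 14.7 CPM in male +/+ replicate 1, at 24.6 CPM in male E147A/+ replicate 3 and at 39.1 to 48.4 CPM in the other 8 libraries. The genotype difference over both sexes was 0.29 (SE 0.26, adjusted p = 0.833) for E2f1 and -0.0066 (SE 0.27, adjusted p = 0.997) for Foxm1. Both changed sign with the processing, E2f1 to -0.25 with litter as a covariate and Foxm1 to 0.073 with limma-voom.

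The 14 S phase members encode the MCM helicase (Mcm2 to Mcm7), its loaders Cdc6 and Cdt1, the GINS subunit Gins2, the sliding clamp Pcna and the nucleotide enzymes Rrm1, Rrm2, Tyms and Tk1. Male +/+ replicate 1 (litter 4) was the lowest library for 13 of the 14, and male E147A/+ replicate 3 (litter 3) for the remaining one, Mcm7. As a percentage of each gene's median over the 10 libraries, the median S phase member stood at 44.5% in male +/+ replicate 1 and at 57.1% in male E147A/+ replicate 3, and at 93.5% to 132% in the other 8. In bulk RNA fewer cells in S phase and less of these RNAs per cell cannot be told apart. Pcna (ENSMUSG00000027342, chr2:132249162-132253314) was at 273 and 388 CPM in female E147A/+, 293 and 394 in female +/+, 261, 248 and 175 for the male E147A/+ cultures, and 156, 309 and 439 for the male +/+ cultures. Mcm6 was at 224 and 254 CPM in female E147A/+, 231 and 268 in female +/+, 231, 238 and 135 for the male E147A/+ cultures, and 116, 287 and 259 for the male +/+ cultures. The low pair of libraries holds 1 culture of each genotype, and the levels of both genes overlapped between genotypes in females and in males.

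Tyms, thymidylate synthase, was the most variable member. It was at 32.5 and 51.3 CPM in female E147A/+, 49.6 and 43.7 in female +/+, 30.9, 29.97 and 11.2 for the male E147A/+ cultures, and 7.62, 38.7 and 67.6 for the male +/+ cultures, a range of 8.86-fold whose lowest and highest libraries were both male +/+. Cdc6, which loads the helicase together with Cdt1, was at 43.1 and 47.6 CPM in female E147A/+, 29.3 and 34.8 in female +/+, 42.6, 47.7 and 17.2 for the male E147A/+ cultures, and 11.5, 51.8 and 45.1 for the male +/+ cultures. Cdt1 itself was at 60.8 and 67.0 CPM in female E147A/+, 59.0 and 60.1 in female +/+, 71.8, 70.6 and 56.9 for the male E147A/+ cultures, and 25.3, 64.9 and 55.2 for the male +/+ cultures. Cdt1 was low in male +/+ replicate 1 alone, while Cdc6 was low in both libraries. The largest and smallest S phase fold changes over both sexes were 0.28 (SE 0.23, adjusted p = 0.826) for Cdt1 and -0.41 (SE 0.50, adjusted p = 0.875) for Tyms.

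Among the 21 mitosis members, male E147A/+ replicate 3 was the lowest library for 17 and male +/+ replicate 1 for the other 4 (Aurkb, Plk1, Ube2c and Tpx2). The median member stood at 65.8% of its 10-library median in the former and at 71.6% in the latter, against 90.5% to 139% in the other 8 libraries. Mki67, the gene of the proliferation marker Ki-67 (ENSMUSG00000031004, chr7:135689784-135716361), was at 394 and 369.5 CPM in female E147A/+, 609 and 577 in female +/+, 369, 398 and 231 for the male E147A/+ cultures, and 372, 399 and 569 for the male +/+ cultures. Both female E147A/+ cultures lay below both female +/+ cultures, while the male groups overlapped. Ccnb1, cyclin B1 (ENSMUSG00000041431, chr13:100778650-100786570), was at 138 and 168 CPM in female E147A/+, 198 and 248 in female +/+, 142, 159 and 105 for the male E147A/+ cultures, and 111, 165 and 265 for the male +/+ cultures, with the same order in females and an overlap in males.

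Cenpf, a kinetochore protein gene (ENSMUSG00000026605, chr1:189640606-189688086), was at 114 and 109.9 CPM in female E147A/+, 179 and 201 in female +/+, 113, 115 and 82.4 for the male E147A/+ cultures, and 139, 134 and 180.1 for the male +/+ cultures. All E147A/+ cultures lay below all +/+ cultures of the same sex, and Cenpf was the only one of the 44 members with separate genotypes in males, a share below the 3.96% of all genes that were lower without overlap in the same comparison. Ccnb2, cyclin B2, was at 70.1 and 66.3 CPM in female E147A/+, 96.8 and 112 in female +/+, 56.3, 75.1 and 55.7 for the male E147A/+ cultures, and 63.4, 69.9 and 84.3 for the male +/+ cultures, separate in females and overlapping in males. Cenpa, the centromeric histone H3 variant, went the other way in females, at 156 and 170.0 CPM in female E147A/+, 139 and 131 in female +/+, 101, 131 and 74.9 for the male E147A/+ cultures, and 90.2, 108 and 155 for the male +/+ cultures. Ube2c, the ubiquitin-conjugating enzyme of the anaphase-promoting complex, was at 133 and 142 CPM in female E147A/+, 168 and 188 in female +/+, 113, 146 and 125 for the male E147A/+ cultures, and 98.98, 125 and 160.1 for the male +/+ cultures.

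**Figure D1:**
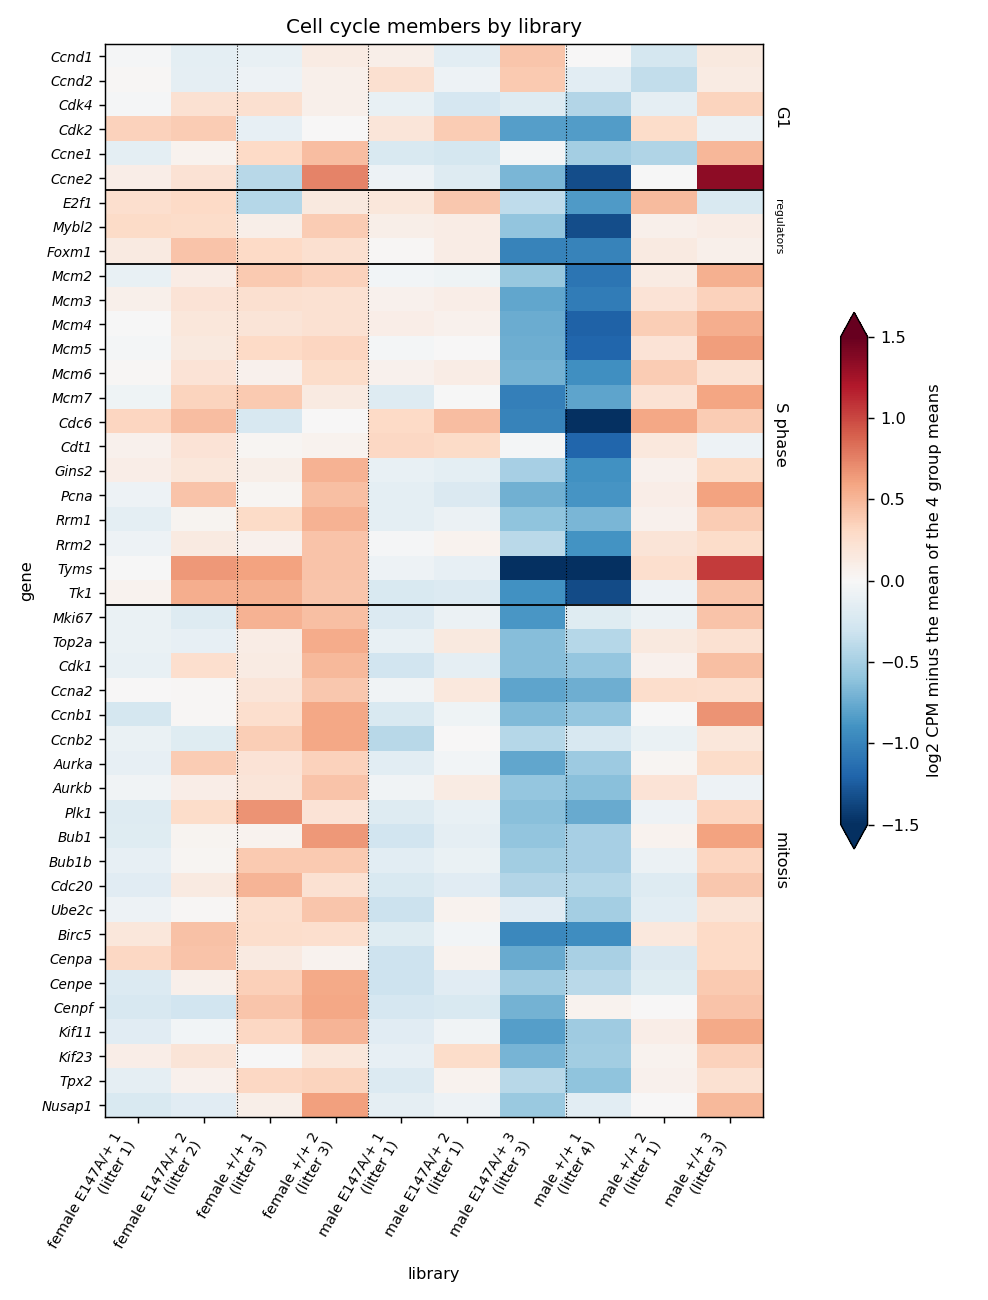
Level of the 44 members in the 10 libraries, as log2 CPM minus the mean of the 4 group means of each gene (colour, limited to 1.5 in either direction); columns are libraries with their litter, rows are genes by role. Male E147A/+ replicate 3 and male +/+ replicate 1 are blue in most regulator, S phase and mitosis rows (not Cdt1 in the former or Cenpf in the latter), while Ccnd1 and Ccnd2 are red in male E147A/+ replicate 3.

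A score was formed for each library as the mean over a class of log2 CPM centred per gene on the mean of the 4 group means. The S phase score was 0.0094 and 0.27 in female E147A/+, 0.21 and 0.31 in female +/+, -0.0087, 0.017 and -0.73 for the male E147A/+ cultures, and -1.13, 0.20 and 0.44 for the male +/+ cultures. The mitosis score was -0.095 and 0.07 in female E147A/+, 0.27 and 0.42 in female +/+, -0.21, -0.026 and -0.63 for the male E147A/+ cultures, and -0.49, 0.0019 and 0.35 for the male +/+ cultures. Both scores were lowest in male +/+ replicate 1 and male E147A/+ replicate 3, but in the opposite order: the former was lower in S phase genes and the latter in mitosis genes. The S phase minus mitosis difference was -0.65 in male +/+ replicate 1 and -0.11 to 0.20 in the other 9 libraries. With the 34 other S phase genes and 45 other mitosis genes in place of the members, it was -0.37 in male +/+ replicate 1 and -0.21 to 0.21 elsewhere. All 4 E147A/+ libraries of litters 1 and 2 had a positive difference and the fifth, male E147A/+ replicate 3, a negative one (-0.10). Both female +/+ libraries had a negative one (-0.059 and -0.11) and male +/+ replicates 2 and 3 a positive one (0.20 and 0.096).

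**Figure D2:**
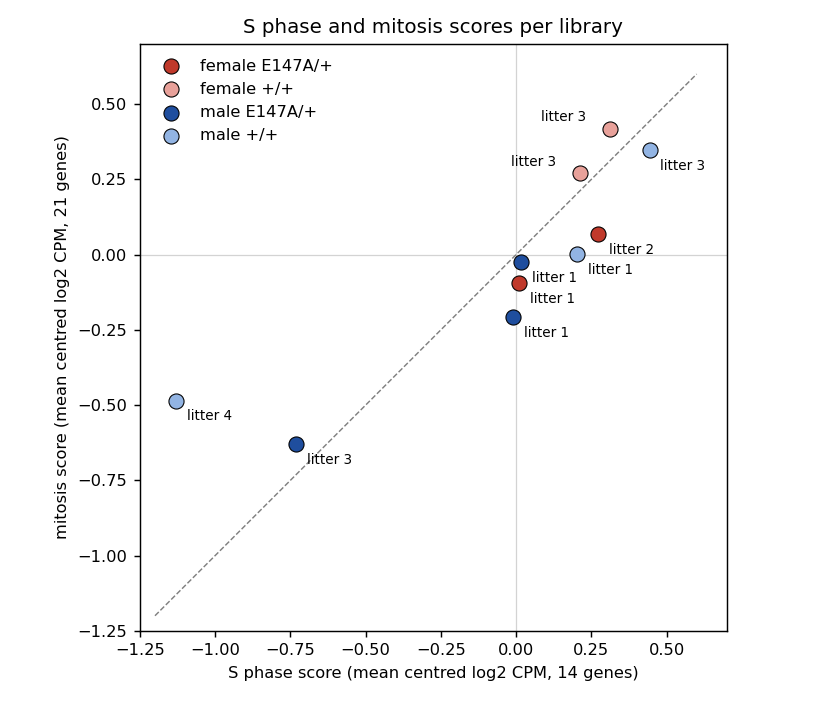
S phase score (horizontal) against mitosis score (vertical) of each library, both in log2 units; each point is 1 culture, coloured by group and labelled by litter, and the dashed line marks equal scores. Male +/+ replicate 1 of litter 4 lies at -1.13 and -0.49, male E147A/+ replicate 3 of litter 3 at -0.73 and -0.63, and the other 8 libraries between -0.0087 and 0.44 on the horizontal axis.

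The pooled SD within groups was 0.55 for the S phase score and 0.31 for the mitosis score. The mean S phase score of E147A/+ cultures lay below that of +/+ cultures by 0.12 in females and by 0.079 in males, within that spread. Both values rested on single cultures. The female one was 0.011 without female E147A/+ replicate 1 and -0.25 without female E147A/+ replicate 2. The male one was -0.56 without male +/+ replicate 1, whose absence also narrowed the pooled SD to 0.29, and 0.17 without male E147A/+ replicate 3, 0.10 without male +/+ replicate 2 and 0.22 without male +/+ replicate 3. For the mitosis score the difference was -0.36 in females and -0.24 in males, the latter between -0.46 (without male +/+ replicate 1) and -0.046 (without male +/+ replicate 3). Across the 10 libraries the members moved together: the median Pearson r of log2 CPM was 0.915 over 91 pairs of S phase members, 0.833 over 210 pairs of mitosis members and 0.818 over 294 pairs of 1 of each. Ccnd1 and Ccnd2 had a median r of -0.25 with the S phase and mitosis members. These correlations share the 10 libraries, 2 of which lie far from the rest, and are given without a test.

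The first comparison asked whether the cell cycle genes differed between Smchd1 genotypes. Over both sexes 0 of 44 members passed an adjusted p of 0.05, where 0.0818% of all tested genes (14) did. At an unadjusted p of 0.05, 5 of 44 members passed, all of them mitosis genes with a negative fold change, against 2.85% of all genes with a negative one at that level. They were Cenpf, -0.66 (SE 0.14, adjusted p = 0.292), Mki67, -0.53 (SE 0.18, adjusted p = 0.748), Ccnb2, -0.41 (SE 0.14, adjusted p = 0.727), Nusap1, a spindle protein gene, -0.48 (SE 0.17, adjusted p = 0.771), and Cenpe, a centromeric kinesin gene, -0.41 (SE 0.17, adjusted p = 0.814), all from edgeR's quasi-likelihood test. Cenpf was called in 1 of the alternative analyses, DESeq2, at an adjusted p of 0.00859, where 0.662% of all genes passed. Without male +/+ replicate 1, 7.37% of all genes passed an unadjusted p of 0.05 in either direction, and 3.76% with a negative fold change. The number of members that did was then 17 of 44 rather than 5, all negative. Without female E147A/+ replicate 2 it was 2, against 3.95% of all genes, and no member passed the adjusted threshold in either case.

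By role, the median log2 fold change over both sexes was -0.31 for the mitosis members, 20 of 21 of them negative, and -0.19 for the S phase members, 12 of 14 negative. It was -0.030 for the G1 members and 0.094 for the regulators, while the median of all tested genes was -0.014, with 52.0% negative. Negative mitosis values ran from -0.66 (Cenpf) to -0.037 (Kif23), and Cenpa was at 0.035. The positive S phase members were the helicase loaders Cdt1 at 0.28 and Cdc6 at 0.25. Without male +/+ replicate 1 these were 0.13 and 0.034, and with litter as a covariate -0.078 and -0.58. Without male +/+ replicate 3 the medians were -0.17 for mitosis and -0.040 for S phase, and without male +/+ replicate 1 they were -0.41 and -0.37. The S phase median was -0.11 without female E147A/+ replicate 1 and also without male E147A/+ replicate 3. With litter as a covariate they were -0.58 and -0.60, and 14 of 44 members had an unadjusted p under 0.05, against 3.77% of all genes in that fit. With limma-voom they were -0.22 and -0.079. Oligodendrocyte lineage markers had negative values along with the mitosis members: 5 of the 6 tested were negative, 3 of them (Pdgfra, Sox10 and Gpr17) at an unadjusted p under 0.05, with a median of -1.42. Their score differed by -1.63 in females and -1.201 in males, with a pooled SD of 0.70. Their part in the mitosis values was not tested.

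**Figure D3:**
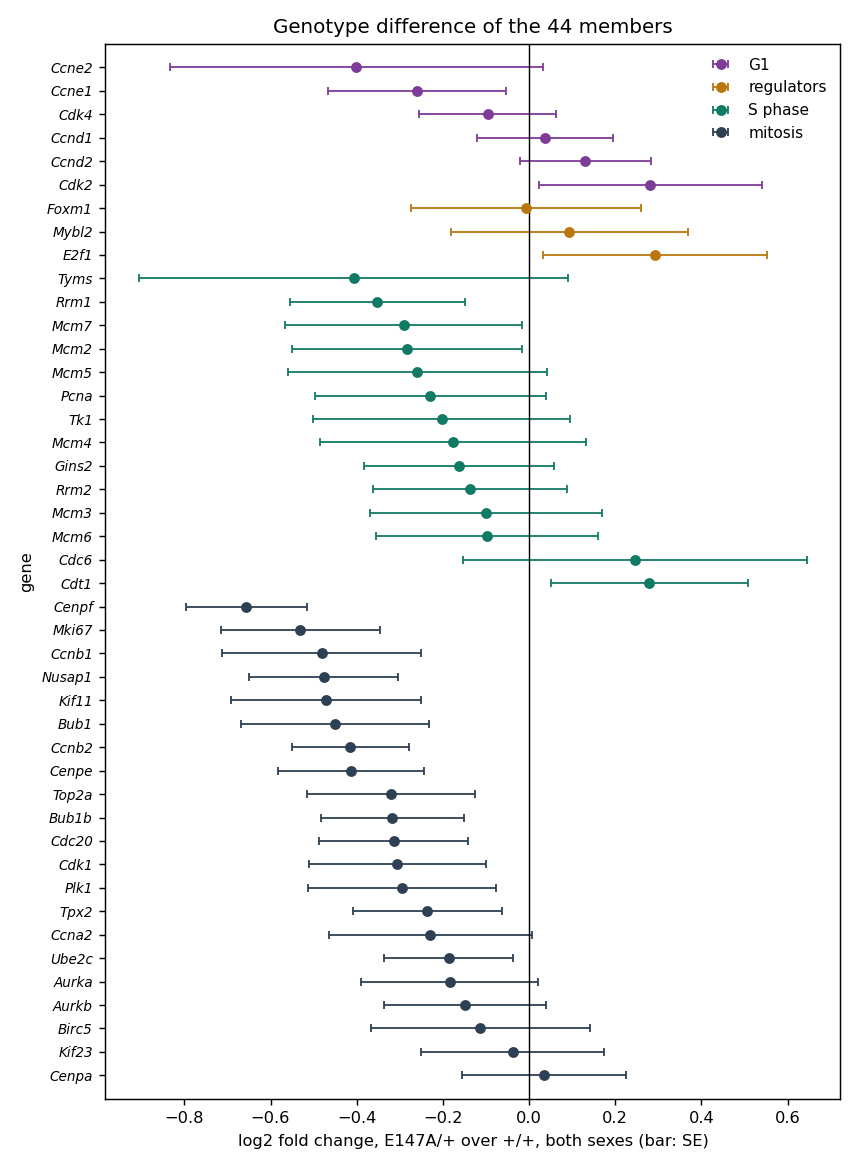
Log2 fold change of E147A/+ over +/+ in both sexes for each of the 44 members (horizontal axis; points are estimates, bars 1 SE), ordered by role and value. Of the 21 mitosis members 20 lie left of 0, with Cenpf at -0.66, and no member passed an adjusted p of 0.05.

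In females 0 of 44 members passed (0.0117% of all genes did), and 2, Cenpf and Ccnb2, had an unadjusted p under 0.05, both negative, against 1.66% of all genes. The count was between 1 and 6 when single libraries were left out, 6 without male +/+ replicate 3, where 6.46% of all genes passed in either direction. In a fit of the 2 female groups alone it was 10, against 9.42% of all genes. The median was -0.40 for mitosis members and -0.14 for S phase members. The S phase median was 0.0012 without E147A/+ replicate 1 and -0.32 without replicate 2. With litter as a covariate it was -0.58, but that fit does not separate litter from genotype in females. It sets E147A/+ replicate 1 against the +/+ cultures, with a litter term estimated from male cultures. Both E147A/+ libraries lay below both +/+ libraries for 21 of 44 members, against 19.3% of all genes, and 15 of these were mitosis genes: Mki67, Top2a, Ccna2, Ccnb1, Ccnb2, Aurkb, Bub1, Bub1b, Cdc20, Ube2c, Cenpe, Cenpf, Kif11, Tpx2 and Nusap1. The 5 S phase members among them were Mcm2, Mcm3, Mcm4, Mcm5 and Rrm1. Separate libraries in the other direction were found for 5 of 44 members (Cdk2, E2f1, Cdc6, Cdt1 and Cenpa), against 21.8% of all genes. Since both female +/+ cultures came from litter 3 and neither E147A/+ culture did, these values compare litters as much as genotypes.

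In males 0 of 44 members passed (0.0234% of all genes did), and 1, Cenpf, had an unadjusted p under 0.05, against 1.82% of all genes with a negative value. The median was -0.24 for mitosis members, all 21 negative, and -0.22 for S phase members, 13 of 14 negative. Cenpf alone, 1 of 44, had no overlap between genotypes with E147A/+ lower, where 3.96% of all genes had none, and 0 of 44 had E147A/+ higher, where 3.2% of all genes did. Without male +/+ replicate 1 the medians were -0.43 and -0.52 and 15 of 44 members had an unadjusted p under 0.05, against 6.64% of all genes in that fit. Without male +/+ replicate 3 they were -0.038 and 0.11. With litter as a covariate they were -0.46 and -0.62, and 16 of 44 members had an unadjusted p under 0.05, against 5.89% of all genes. With limma-voom and quality weights they were -0.068 and 0.015. Without male E147A/+ replicate 3 they were -0.079 and -0.041, and without male E147A/+ replicate 2 they were -0.39 and -0.31. The male medians thus moved with the cultures included and with the model.

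The female and male differences were compared by an interaction term. No member passed (0% of all genes did, with 314 or 1.84% at an unadjusted p under 0.05), and 0 of 44 members had an unadjusted p under 0.05. The lowest p were those of Ccnb2, -0.39 (SE 0.27, adjusted p = 0.999), Cenpa, 0.48 (SE 0.38, adjusted p = 0.999), and Ube2c, -0.37 (SE 0.30, adjusted p = 0.999), as female minus male log2 difference in edgeR's quasi-likelihood test. With single libraries left out Ccnb2 ran from -0.52 to -0.24, Cenpa from 0.23 to 0.69 and Ube2c from -0.56 to -0.21. Between the sexes in +/+ cultures, 0 of 44 members passed (0.0292% of all genes did) and 2 mitosis members, higher in females, had an unadjusted p under 0.05, against 0.643% of all genes. That count of members was 0 without female +/+ replicate 2, where 4.01% of all genes passed in either direction, and 13 without male +/+ replicate 3, where 9.35% did. It was 0 or 1 without any other single library. All 21 mitosis members were higher in female than in male +/+ (median 0.33), as were 13 of 14 S phase members (median 0.29). Without male +/+ replicate 1 these medians were 0.16 and -0.080, and without male +/+ replicate 3 they were both 0.55. Sex and litter overlap here too, as both female cultures were from litter 3.

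Litters 1 and 3 each held male cultures of both genotypes, which allowed the genotypes to be set side by side within a litter. In litter 1 the 2 male E147A/+ cultures minus the 1 male +/+ culture gave a median log2 difference of -0.20 for S phase members (13 of 14 negative) and of -0.13 for mitosis members (17 of 21 negative). In litter 3 the 1 E147A/+ culture minus the 1 +/+ culture gave -1.21 (13 of 14 negative) and -1.04 (21 of 21 negative). All tested genes had medians of -0.0023 and -0.047. For Mki67 the difference was -0.057 in litter 1 and -1.30 in litter 3, and for Cenpf it was -0.24 and -1.13. The litter 3 values set the library with the lowest mitosis score against the male library with the highest, and these 2 cultures alone allow no test. The fit with litter as a covariate, given above for males, rests for males on the same 5 cultures of litters 1 and 3, since litters 2 and 4 held 1 culture each, which a litter term fits exactly.

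The 4 cultures of litter 1 were close to each other in these genes, while in litter 3 male E147A/+ replicate 3 stood apart from the other 3 cultures. It was the only E147A/+ culture of litter 3, so its genotype and the culture itself cannot be told apart there. Likewise male +/+ replicate 2 was the only +/+ culture of litter 1. The S phase score lay between -0.0087 and 0.20 in the 4 cultures of litter 1, which were 1 female and 3 male, and between -0.73 and 0.44 in the 4 of litter 3. The mitosis score lay between -0.21 and 0.0019 in litter 1 and between -0.63 and 0.42 in litter 3. The SD of log2 CPM was smaller within litter 1 than within litter 3 for 42 of 44 members, against 81.8% of all genes. Its median over the members was 0.13 in litter 1 and 0.51 in litter 3, against 0.18 and 0.37 over all genes. The exceptions were Ccnd2 and Cdt1, at 0.25 and 0.11 in litter 1 and 0.20 and 0.054 in litter 3. The wider spread of litter 3 rested on male E147A/+ replicate 3. Without it the S phase scores of litter 3 lay between 0.21 and 0.44 and its mitosis scores between 0.27 and 0.42, the median SD over the members was 0.14, and the SD was smaller within litter 1 for 28 of 44 members, against 72.9% of all genes.

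Tested with sex and genotype in the model, litter 1 against litter 3 gave 0 of 44 members at an adjusted p under 0.05, where 3.16% of all genes (541) passed. At an unadjusted p of 0.05, 8 members passed, 5 higher and 3 lower in litter 1, against 22.7% of all genes. Without male +/+ replicate 2 there were 26, all of them higher, against 22.3% of all genes in either direction and 9.42% lower. Without male E147A/+ replicate 3 there were 9, all of them lower, against 13.9% in either direction and 6.55% lower. The lowest p were those of Cdk2, 0.77 (SE 0.17, adjusted p = 0.0583), E2f1, 0.65 (SE 0.18, adjusted p = 0.0893), Cdc6, 0.93 (SE 0.26, adjusted p = 0.0914), Mcm6, 0.49 (SE 0.16, adjusted p = 0.129), and Ccne1, -0.51 (SE 0.18, adjusted p = 0.15), as litter 1 minus litter 3 on the log2 scale in edgeR's quasi-likelihood test. With single libraries left out Cdk2 ran from 0.38 to 1.11, Cdc6 from 0.34 to 1.47, Mcm6 from 0.15 to 0.80 and Ccne1 from -0.89 to -0.18. All 14 S phase members were positive (median 0.23), while the mitosis members had a median of 0.075. DESeq2 called Cdk2, E2f1 and Cdc6 (lowest adjusted p 0.00195), 3 of 44 members where it called 11.6% of all genes. With at least 10 counts in every library as the filter, Cdk2 alone passed (adjusted p = 0.0451 in edgeR), 1 of 44 against 4.75%. Without female +/+ replicate 2, E2f1 passed (adjusted p = 0.0468 in edgeR), 1 of 44 members against 2.85% of all genes, and without male +/+ replicate 3, Cdk2 and Cdc6 passed (lowest adjusted p 0.0244), 2 of 44 against 7.58%. The direction rested on single libraries, each the only culture of its genotype in its litter, so that without it the litter held 1 genotype. Without male E147A/+ replicate 3 the S phase and mitosis medians were -0.21 and -0.39, and without male +/+ replicate 2 they were 0.75 and 0.47. Without sex and genotype in the model they were -0.16 and -0.31.

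The spread between cultures of a group was summarised as edgeR's biological coefficient of variation, the relative SD beyond counting error. Its median was 0.254 over the 44 members and 0.292 over all genes. These medians were not matched for abundance. S phase members had a median of 0.301, mitosis members 0.226 and G1 members 0.221. The highest values were those of Tyms (0.529), Ccne2 (0.465) and Cdc6 (0.433), and the lowest those of Ccnb2 (0.178), Cenpf (0.179) and Ccnd2 (0.183). The least variable members differed widely in abundance, as Ccnd2 stood at 243 CPM per kilobase of exon and Cenpf at 8.86, near the lowest member, Tyms, at 5.96.

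**Figure D4:**
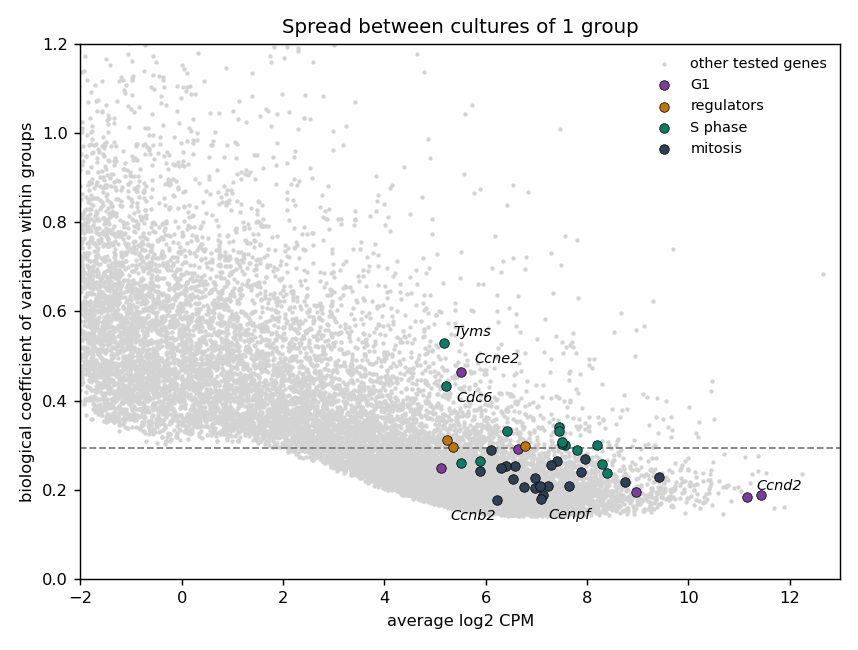
Biological coefficient of variation within groups (vertical) against average log2 CPM (horizontal) for the 44 members, coloured by role, and for the other tested genes in grey; genes outside the axes are not drawn and the dashed line is the median of all genes, 0.292. S phase members lie mostly above the mitosis members at like abundance, with Tyms at 0.529.

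Other genes of the cell cycle, from lists that do not hold the members, were tested in the same fits. Of 45 other mitosis genes 0 passed the adjusted threshold over both sexes, 43 were negative and the median was -0.26; in females all 45 were negative (median -0.32). Pttg1, securin, had the lowest p over both sexes, -0.55 (SE 0.17, adjusted p = 0.701), followed by Hmmr, -0.43 (SE 0.17, adjusted p = 0.803), in edgeR's quasi-likelihood test. Of 34 other S phase genes 0 passed, 21 were negative and the median was -0.068. Among 25 other control genes (checkpoint kinases, E2F and MYC family members and others) 0 passed and the median was -0.029.

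Of 10 CDK inhibitors and pocket proteins 0 passed over both sexes, with a median of -0.13, and the lowest p was that of Cdkn2c, -0.42 (SE 0.18, adjusted p = 0.821). Of 13 p53 target genes 0 passed, with a median of -0.11. The inhibitor score, formed like the S phase score, was 0.23 in male +/+ replicate 1 and 0.12 in male E147A/+ replicate 3, but 0.22 in female +/+ replicate 1, whose S phase and mitosis scores were above 0. The p53 target score was 0.41 in male +/+ replicate 1 and 0.11 in male E147A/+ replicate 3, below the 0.27 of female +/+ replicate 1. Both lists were thus highest in male +/+ replicate 1 but did not set male E147A/+ replicate 3 apart. Cdkn1a, the CDK inhibitor p21 and itself a p53 target, was at 473 and 576 CPM in female E147A/+, 570.4 and 467 in female +/+, 484, 368 and 747 for the male E147A/+ cultures, and 810.3, 355 and 478 for the male +/+ cultures, highest in the pair of libraries with the lowest scores. Of the 13 p53 targets 8 were highest in male +/+ replicate 1, such as Ccng1 at 936 CPM, against 748 in male E147A/+ replicate 3 and 353 to 629.7 in the other 8. Cdkn1c, the CDK inhibitor p57, was at 104 CPM in male +/+ replicate 1 and at 8.90 to 26.7 CPM in the other 9. Cdkn1a, Ccng1, Cdkn1c, Cspg4 and Pdgfra, like the markers named with the depth above, were picked with their values known.

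Male +/+ replicate 1 also held the highest level of 5 of the 6 oligodendrocyte lineage markers tested, such as Cspg4 at 322 CPM (61.2 to 156 CPM elsewhere) and Pdgfra at 85.0 CPM (2.80 to 66.7 CPM elsewhere), with Mog near 0 in every library. In male E147A/+ replicate 3 the summed level of these markers, 147.3 CPM, lay inside the range of the other libraries, and the 6 fibroblast and meningeal markers summed to 24.5 CPM, second to 31.2 CPM in male +/+ replicate 3. The 6 endothelial and mural markers summed to 9.04 CPM in male E147A/+ replicate 3 and to 1.48 to 5.62 CPM elsewhere, 3 of 6 being highest there. Its neuron marker score was also the highest, 1.11 against -1.38 to 1.06, although the summed level of these markers was the lowest, 612 CPM. The astrocyte marker score was highest in male +/+ replicate 1, at 0.76 against -0.35 to 0.29 elsewhere. The part of these markers in the low scores was not tested. Among all marker genes Gpr17, of the oligodendrocyte lineage, passed over both sexes, -4.98 (SE 0.65, adjusted p = 0.0249), at 4.62 CPM or less. Hes1, 1.15 (SE 0.13, adjusted p = 0.0141), Hes5, 1.67 (SE 0.33, adjusted p = 0.0418), and Col3a1, -3.36 (SE 0.58, adjusted p = 0.0305), passed in litter 1 against litter 3 in edgeR's quasi-likelihood test. Hes1 and Hes5 are Notch targets of neural stem cells and Col3a1 is a fibrillar collagen of fibroblasts.

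**Figure D5:**
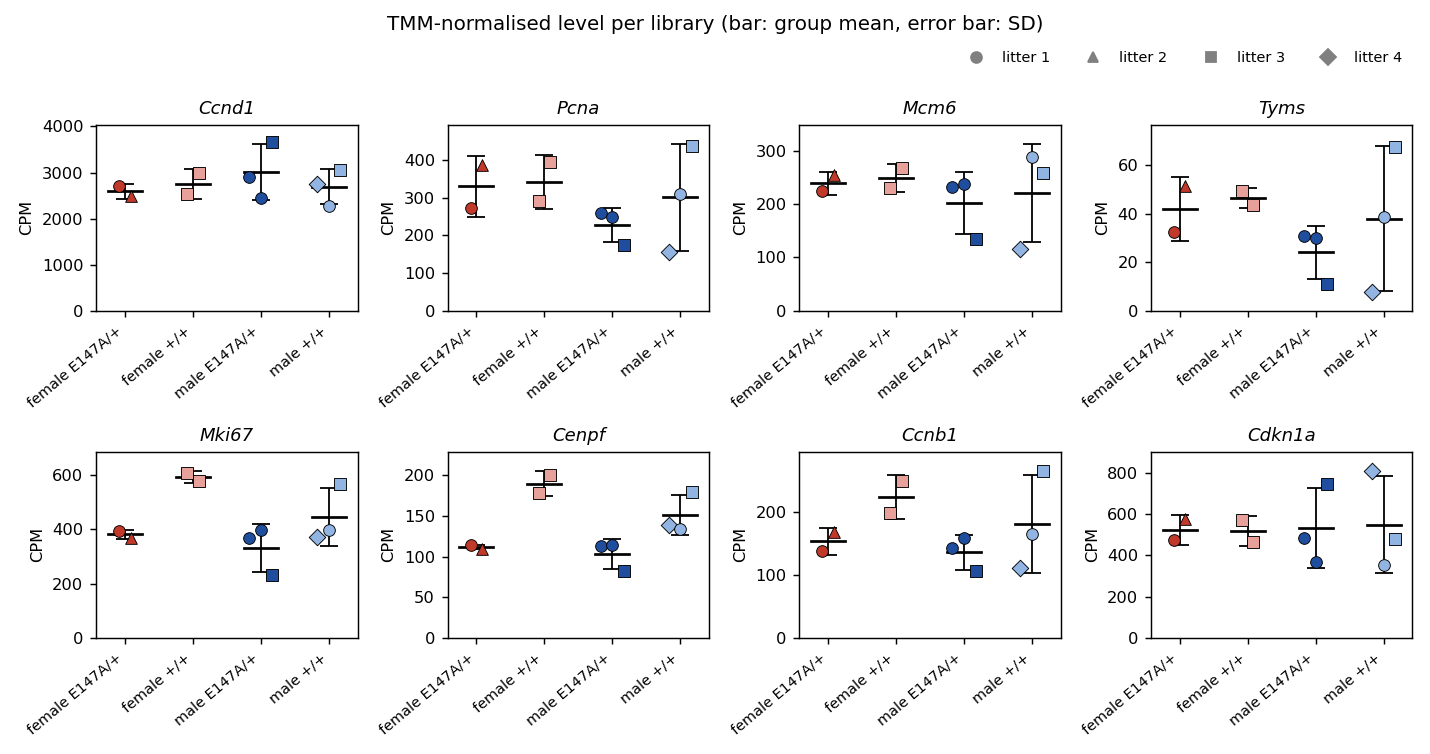
TMM-normalised level (CPM) of 7 members and of Cdkn1a in each culture by group; points are cultures with shapes for litters, bars group means and error bars SD. Cenpf and Mki67 separate the female genotypes, Ccnd1 does not, and Tyms, Pcna and Mcm6 are lowest in the male cultures in which Cdkn1a is highest (747 and 810 CPM).

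In the 4 female libraries part of the counts had been assigned to the 129 or the Cast allele, with 301 to 30009 allelic counts per member and library. The shares of 6187 autosomal genes that had at least 301 allelic counts in each of these libraries are given for comparison. A Cast share of 35% to 65% was found for 24 and 13 of 44 members in female E147A/+ and for 22 and 22 in female +/+, against 35.03% and 44.2%, and 48.9% and 43.9%, of those genes. A share under 15%, at most 12.7%, was found for 19 and 25 members in E147A/+ and for 18 and 18 in +/+, against 56.8% and 47.4%, and 42.6% and 47.4%. For 33 of 44 members the class differed between libraries, against 83.95% of those genes. The Cast share lay at 35% to 65% in every female library for 6 members (6.43% of those genes). For 5 members (Cdc6, Cdt1, Gins2, Mcm5 and Top2a) it was under 15% in all 4 (7.90%). The counted alleles thus differed between cultures, for the members as for most other genes. Whether a Cast share near 0 meant that the culture lacked the Cast allele, that reads were not assigned to it or that it was not expressed was not tested.

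The Cast share of Cenpf counts was 0.301% (0.146 to 0.620, 95% Wilson interval) and 49.7% (47.6 to 51.8) among E147A/+ females, and 0.301% (0.152 to 0.592) and 50.9% (49.3 to 52.6) among +/+ females. Each genotype therefore held 1 culture of each kind, and the total level was 114 against 179 CPM in the pair with almost no Cast counts and 109.9 against 201 CPM in the pair with both alleles. For Mki67 the share was 48.2% and 1.16% in E147A/+ and 47.1% and 47.7% in +/+, and the 2 E147A/+ cultures were at 394 and 369.5 CPM. For Ccnb1 it was 37.2% and 0% (0 of 2792 counts, which allows a share of up to 0.107% at 3 counts, with a 95% Wilson upper limit of 0.137%) in E147A/+ and 42.3% and 0.186% in +/+. Intervals cover counting error only.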

How the data were processed

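Poly(A) RNA of 10 neural stem cell cultures was sequenced as 80 bp read pairs. The authors deposited raw counts per gene and, for the 4 female libraries, counts of reads that could be given to the 129 or to the Cast allele. The submitters' processing notes name Trim Galore 0.4.4, HISAT2 2.0.5, featureCounts, R 3.5.1 and edgeR 3.24.0, and the builds GRCm38 and mm10. Whether counting used strand, and how alleles were assigned, is not given in the sources used here. Genes without a symbol held 0.693% of counts and named no member.

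Libraries were grouped by the sex and genotype in their titles, with litters from the labels. Counts were filtered by filterByExpr, given TMM factors and fitted in edgeR 4.0.16 (under R 4.3.3), whose quasi-likelihood F test was used with 1 mean per group over all 10 libraries (6 residual degrees of freedom), or with sex, genotype and litter as terms for litters (4). p-values were adjusted by Benjamini-Hochberg over all genes tested. A standard error is the size of the log2 fold change over the root of its F value. The prior count of scores was 2. Levels per kilobase used the exon union of GENCODE M21. Alternatives were RLE factors, DESeq2 1.42.0, limma-voom (limma 3.58.1), other filters, litter or a replicate block in the model, fewer groups, other gene lists and leaving out each library. The methods were checked on simulated counts. Depth, 20648916 to 44519020 counts per library, left even the lowest member at 221 counts. No 2 replicates agreed within sampling noise.

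The members and the gene lists were chosen with earlier results of these data known. Values are printed by library for Mki67, Pcna, Ccnb1, Ccnd1 and Ccnd2, and for members at the extremes of fold change per role, of p in the litter and interaction comparisons, and of variation between cultures. Of the other lists, genes past the threshold or the 2 with the lowest p were named. Outside this rule values were given for the members Cdk4, Mybl2, Nusap1, Cenpe and Kif23, and promoter bases for Cdk1. Other genes given values outside it are said to be. Replicate numbers come from the titles and were not used to pair the cultures, which came from separate embryos, although male replicates 2 and 3 share a litter across genotypes.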

Additional observations from a re-analysis of the deposited data

Results flagged for a closer look

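With 4 cultures each, litters 1 and 3 were the only labelled sets large enough to be searched for a culture far from the rest, over 21 measures each (42 searches, of which chance would flag about 1 in 20). In litter 3 male E147A/+ replicate 3 lay far below the other 3 cultures in the mitosis score, -0.63 against 0.27 to 0.42, and in Mki67, 231 against 569 to 609 CPM. In litter 1 male +/+ replicate 2 lay above the others in the S phase score, 0.20 against -0.0087 to 0.017, and in Cenpf, 134 against 113 to 115 CPM. Male E147A/+ replicate 1 lay below the others of litter 1 in Mki67, 369 against 394 to 399 CPM. The gaps in litter 1 were large against its narrow range but small in size. Male E147A/+ replicate 3 and male +/+ replicate 2 were each the only culture of their genotype in their litter.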

How the results depend on the processing

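No score of a library moved by more than the pooled spread under another normalisation, list or prior count. No member passed the adjusted threshold in females, in males, in the interaction or between sexes under any alternative. Over both sexes 14 genes were called in the main analysis, against 113 with DESeq2 (1 member, Cenpf), 29 with limma-voom, 33 without a filter, 9 with at least 10 counts in every library, and 3 with litter as a covariate. In females 2 were called, against 46 with DESeq2, 8 without a filter, 0 with litter as a covariate and 1 in a fit of the 2 groups alone. In males 4 were called, against 48 with DESeq2, 9 with limma-voom, 14 without a filter, 2 with litter as a covariate and 1 in a fit of the 2 groups alone. The interaction called 0 genes in edgeR, 2 with DESeq2 and 1 with litter as a covariate. Between sexes 5 were called, against 0 with at least 10 counts in every library and 3 in the 2 groups alone.

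With a replicate block 5 genes were called over both sexes, 0 in females and 2 in males. Deviations of same-numbered cultures had correlations of -0.30 in females and of -0.24, 0.42 and 0.034 in males, and the labels do not tie the numbers to a litter or day. Male replicates 2 and 3 came from litters 1 and 3 in both genotypes, whereas male replicates 1 and the same-numbered females came from different litters. With the female numbers crossed, added after the data were seen, the replicate block gave 6 calls over both sexes and 0 in females.

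Litter 1 against litter 3 called 541 genes and 0 members, against 1977 genes and 3 members with DESeq2, 2110 genes and 4 members without a filter, 657 genes and 1 member with at least 10 counts in every library, 1557 genes and 1 member without covariates, and 0 genes in males alone. Without covariates the mitosis median was -0.31, Mki67 was at -0.35 and Pcna at -0.25. Ccnb1, at -0.017, became 0.0039 with limma-voom and 0.0046 with at least 10 counts. Over both sexes Foxm1 became 0.073 with limma-voom and 0.0084 with at least 10 counts, and with litter as a covariate Cdk2 became -0.35, E2f1 -0.25, Cdt1 -0.078, Cenpa -0.16 and Cdc6 -0.58. The cause was not tested.

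Leaving out each library in turn gave 2 to 12 genes over both sexes, 0 to 2 in females, 1 to 4 in males and 0 to 1 in the interaction. For litters it gave 4 to 1290 genes, 0 to 2 members, a mitosis median of -0.39 to 0.47 and a median of all members of -0.33 to 0.58, with Mki67 from -0.52 to 0.73, Pcna from -0.36 to 0.62 and Ccnb1 from -0.64 to 0.53. Over both sexes it gave Ccnd1 from -0.047 to 0.10, Cenpa from -0.073 to 0.16, Ccne2 from -0.62 to 0.056, Foxm1 from -0.15 to 0.13 and Mcm6 from -0.25 to 0.021. It also gave Cdk2 from 0.15 to 0.42, Ccne1 from -0.35 to -0.057, Cdt1 from 0.13 to 0.41 and Tyms from -0.65 to -0.048. Every member had at least 221 counts in each library; fits at other depths or group sizes were not made. Leaving out libraries for the score differences and for the spread within litters was also chosen after seeing the data.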
